A study of Saccharomyces cerevisiae with 255 samples.

Results

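The mitochondrial protein import machinery was followed here through the mRNAs of 31 budding yeast genes, listed by the complexes they are known to form. They are 31 of the 6629 genes for which reads were counted, and all 31 had reads in the Puf3-Pup2 strain. The list holds 7 genes of the TOM complex, 5 of the TIM23 complex, 3 of the PAM motor, 3 of the TIM22 complex, 5 small TIM chaperones, 4 genes of the SAM complex, the MIA pair MIA40 and ERV1, and the processing peptidase pair MAS1 and MAS2. Whether RNA-binding proteins (RBPs) bound these mRNAs in living cells, and which parts of the RBPs that needed, was read from RNA tagging.

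Nearly all mitochondrial proteins are made in the cytosol and pass through the outer membrane by the TOM complex. Proteins with an N-terminal presequence then go through TIM23 into the matrix, pulled by the PAM motor, and the processing peptidase cuts the presequence off. Small TIM chaperones hand carrier proteins to TIM22 in the inner membrane and barrel proteins to SAM in the outer membrane, and Mia40 with Erv1 folds small proteins of the intermembrane space by forming disulfides. Puf3 is a Pumilio-family RBP known to bind mRNAs of mitochondrial proteins, and Pub1 is an RRM protein known to bind U-rich sequences.

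In RNA tagging, an RBP is fused at its C terminus to Pup2, a poly(U) polymerase of Caenorhabditis elegans, which adds Us to the tail of the mRNAs that the RBP binds. Tagged reads were those with 4–13 Us, and the tagged share is the percent of a gene's reads in a library that were tagged. All strains were of the BY4741 background and were grown in synthetic medium with glucose to exponential phase, so fermenting cells were measured throughout. The groups used were 34 strains with an intact RBP fused to Pup2 (109 libraries), 50 strains in which the Pup2-tagged RBP lacked a part (127 libraries), 3 strains with Puf3, Puf4 or Puf5 fused to catalytically dead Pup2, called dPup2 (11 libraries), and 3 C-Swat strains of the same proteins without Pup2 (8 libraries). Puf3 itself had 12 libraries, 7 of clone 1 and 5 of clone 2, and its dPup2 strain Puf3_dead had 7, of which 5 were of clone 1. The labels name the Puf3 deletions ΔRBD (RNA-binding domain removed), Δnon-RBD, ΔIDR and T1 to T7, but the residues removed are not given in the sources used here. Nothing in the labels says whether the libraries of a strain came from separate cultures, so p-values measure the spread between libraries, which may be in part technical.

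Read totals of the 255 libraries ran from 93564 to 5768639, and the median was 1045022. Puf3 replicate 6 stood apart from the other 11 Puf3 libraries: 1.71% of its reads over all genes were tagged, against 0.344% to 0.911%, and it was the highest of the 12 libraries for 18 of the 31 import genes. Its reads of PUF3 itself were 51.3 RPM (reads scaled to a library total of 1000000), inside the range of the other libraries of 32.0 to 248 RPM. Results that rest on it are given with and without it, a choice made after seeing the data. Among the other RBPs, Slf1 replicate 3 had 1.97% of its import gene reads tagged, against 0.0149% and 0.0187% in the other libraries of that strain. In Pbp1 replicate 3, 0.610% of all reads were tagged, against 0.0400% and 0.0510%. Sro9 replicate 2 held only 93564 reads.

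The sequence recognised by Puf3 is TGTANATA (N, any base, in DNA letters). It was searched on the sense strand in the 300 nt after the stop codon, in the R64 genome of RefSeq, for 5926 genes with an annotated coding sequence. It was found in 23 of the 31 import genes and in 972 of all 5926 genes (16.4%). A longer form, which has C and then any base right before the core, was found in 13 of the 31 and in 4.74% of all genes. The Puf4 sequence TGTANANTA was found in 1 of the 31, TIM21, and in 8.66% of all genes. These windows were taken from the annotated stop codons, and the ends of the transcripts were not measured here. Sites of 14 of the genes are printed as 30 nt on the sense strand with the core in capitals. First come mRNAs with a high tagged share in Puf3, then intermediate ones, then those with a mean share of 1.02% or less. TOM20 and TOM22 also had high shares but are not printed. The sites of TOM20 start 49 and 191 nt after the stop codon, and that of TOM22 starts 288 nt after it.

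TOM5, first site, chrXVI:797825-797854, plus strand: agagaaagacgTGTAAATAttttttaaaaa
TOM5, second site, chrXVI:797885-797914, plus strand: ctttcttcgctTGTATATAtgcgtattctg
TIM9, chrV:117521-117550, plus strand: catttttagcaTGTAAATAtaaagagaaac
TOM70, chrXIV:398472-398501, minus strand: ctctttcattcTGTAAATAattagcagtgc
TIM10, chrVIII:115498-115527, minus strand: gattcatatccTGTATATAcaagtaacatt
TIM8, chrX:677276-677305, plus strand: cttaatatatcTGTAAATAagcaaatgaat
TIM17, chrX:147726-147755, plus strand: tctctcaaccaTGTACATAttatatattga
TOM6, first site, chrXV:414066-414095, plus strand: tttcacttaccTGTATATAtattggttttt
TOM7, chrXIV:493631-493660, plus strand: aaaaattgacaTGTACATAaagtatatata
PAM17, chrXI:565246-565275, minus strand: ttctcagactcTGTATATAtacatatatga
MIA40, chrXI:77077-77106, plus strand: aggatgatacaTGTAAATAcagtaatatta
TIM13, first site, chrVII:858638-858667, plus strand: gtactcgtactTGTATATAagattcaaagg
TIM13, second site, chrVII:858742-858771, plus strand: tacaaaatataTGTATATAcataaaatgag
TIM12, first site, chrII:427135-427164, minus strand: caaaaaatagcTGTAAATAtgaggactgtc
TIM18, chrXV:874580-874609, minus strand: ccagatatataTGTATATAtcgatctgctt
ERV1, chrVII:544258-544287, plus strand: acagattctcgTGTATATAacactccaatc

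In the Puf3-Pup2 strain, the highest tagged shares were those of 8 mRNAs, TOM5, TOM70, TOM20 and TOM22 of the TOM complex, TIM9, TIM10 and TIM8 of the small TIM chaperones, and TIM17 of the TIM23 complex. The 4 mRNAs of the SAM complex had mean shares from 0% to 1.34%. Summed over the 31 genes, the tagged share was 7.74% to 28.5% in the 12 libraries with a median of 14.7%, against 0.344% to 1.71% over all genes. The dPup2 strains gave 15 tagged reads of 65799 reads of the 31 genes, and the C-Swat strains 10 of 51926. The mean share over the 12 libraries was at least 15% for 8 genes, 2% to 10% for 14, 0.5% to 2% for 2 and under 0.5% for 7, and no gene lay between 10% and 15%.

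Of the TOM genes, TOM5 (YPR133W-A), a small subunit of the complex, had the highest share, 20.7% in the lowest library, 29.0% in the median and 36.6% in the highest. In Puf3_dead, 0 of its 3857 reads were tagged, which allows a share of up to 0.0778%, and the groups did not overlap (edgeR adjusted p = 7.04e-23). Such limits, 3 reads of the total, cover counting error only. The receptors followed. TOM70 (YNL121C), the receptor for carrier proteins, lay at 12.7%, 27.7% and 41.3%, TOM20 (YGR082W), a receptor for presequences, at 6.00%, 26.5% and 37.4%, and TOM22 (YNL131W), the central receptor, at 8.92%, 19.7% and 38.0% in the lowest, median and highest library. TOM40 (YMR203W), which encodes the channel itself, was lower, at 1.60%, 6.36% and 23.9%. TOM7 (YNL070W), a small subunit, had a median of 5.91% and TOM6 (YOR045W), the lowest TOM gene by its mean, 1.18%, 3.18% and 22.1%. The ranges of TOM5 and TOM6 met only through replicate 6, without which TOM6 reached 13.97%.

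All small TIM genes of the soluble chaperones except TIM13 were in the high class. TIM9 (YEL020W-A) lay at 20.2%, 28.8% and 35.5%, TIM10 (YHR005C-A), its partner in the TIM9–TIM10 chaperone, at 14.5%, 21.6% and 40.8%, and TIM8 (YJR135W-A) at 8.67%, 19.4% and 39.2%. TIM13 (YGR181W), whose product forms a chaperone with that of TIM8, had a median share of only 0.922% and a highest of 3.47%, so the mRNAs of these partners did not overlap. TIM12 (YBR091C), whose product sits on the TIM22 complex, was the lowest, with tagged reads in 4 of the 12 libraries and 6 of 1294 reads tagged. Its site starts 2 nt after the stop codon, and a further one starts 30 nt after it.

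Within TIM23, TIM17 (YJL143W), a channel subunit, stood alone with 7.91%, 17.2% and 35.8%. Its partner TIM23 (YNR017W), the other channel subunit, had a median of 3.03%, TIM50 (YPL063W), the presequence receptor, 4.75%, and TIM44 (YIL022W), the anchor of the motor, 1.93%. TIM21 (YGR033C), which contacts TOM, had 0 tagged of 1418 reads, which allows up to 0.212%. Of the PAM genes, PAM16 (YJL104W), a regulator of the motor, had 0.673%, 3.82% and 21.1%, and PAM18 (YLR008C), the J protein that drives it, 1.92%, 4.39% and 15.6%, with replicate 6 the highest for both. PAM17 (YKR065C) was lower, at 0%, 1.04% and 11.9%.

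For TIM22, the channel gene TIM22 (YDL217C) had 0%, 4.39% and 23.5% on 608 reads in all, TIM54 (YJL054W) a median of 1.64%, and TIM18 (YOR297C) 1 tagged of 359 reads. For the disulfide relay, MIA40 (YKL195W) had 0%, 3.05% and 16.5%, against 2 tagged of 1027 reads for ERV1 (YGR029W), the oxidase that recycles Mia40. MAS1 (YLR163C) and MAS2 (YHR024C), the beta and alpha subunit of the peptidase, had medians of 2.71% and 1.89% and were at 0% in 4 of the 12 libraries each. The SAM genes had few tagged reads, with 0 of 478 reads of SAM50 (YNL026W), the channel, 0 of 245 reads of MDM10 (YAL010C), 2 of 968 reads of SAM35 (YHR083W), and 6 of 459 reads of SAM37 (YMR060C), which was at 0% in 7 libraries and at 6.90% in the highest. For SAM50 and MDM10 these reads allow shares of up to 0.628% and 1.22%, so that a low share was not detectable at this depth.

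**Figure D1:**
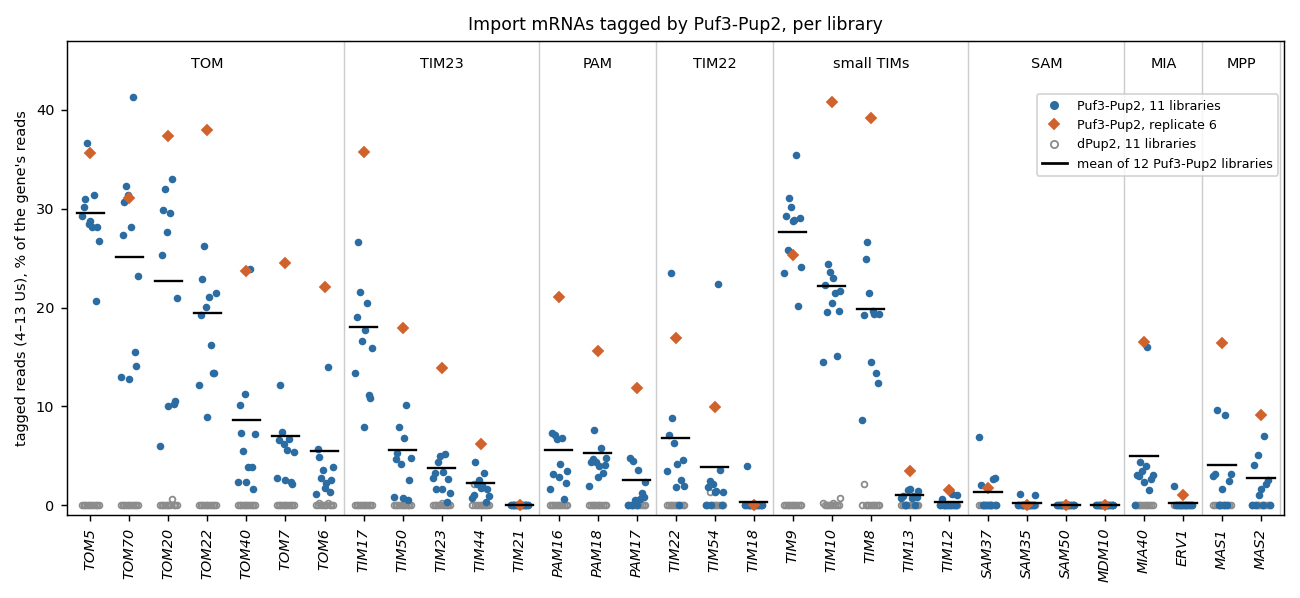
Tagged share (percent of the gene's reads with 4–13 Us, y axis) of the 31 import mRNAs in each of the 12 Puf3-Pup2 libraries (filled circles, replicate 6 as a diamond) and the 11 dPup2 libraries (open circles), grouped by complex and ordered by the mean (bar). TOM5, TIM9 and TIM10 lie above 14% in every Puf3 library, TIM21, SAM50 and MDM10 at 0, and replicate 6 is the highest of the 12 in 18 genes.

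The test of Puf3 against Puf3_dead needed at least 10 tagged reads over the compared libraries and a mean of 16 RPM. It included 23 of the 31 genes, and the other 8 (TIM21, TIM18, TIM12, SAM50, SAM35, SAM37, MDM10 and ERV1) had too few tagged reads. All 23 were called higher in Puf3 at an edgeR adjusted p under 0.05, beside 78.3% of the 457 genes tested. Since a gene could pass the filter only through its tagged reads in Puf3, the number called says little, and the sizes above carry the result. The adjusted p ran from 7.04e-23 for TOM5 through 9.14e-21 for TIM10 and 1.24e-19 for TIM9 to 0.00275 for TIM54. Without replicate 6, 23 of 23 were called, and within clone 1 and clone 2 it was 22 of 23 and 21 of 21. The spread between libraries was wide within both clones. TOM20 was at 22.7% ± 10.8 (SD, n = 12), with 6.00% to 37.4% in clone 1 and 10.3% to 33.03% in clone 2, while TOM5 was at 29.6% ± 4.10. Of 20 other import genes on a fixed list (among them SSC1, MGE1, TOM71, OXA1 and the inner membrane peptidases), 6 had enough tagged reads, 6 of 6 were called higher in Puf3, and 9 of 20 had the Puf3 sequence.

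Beside the sequence, the mean share over the Puf3 libraries had a median of 5.49% in the 23 genes with TGTANATA within 300 nt, from 0.249% for ERV1 to 29.6% for TOM5. In the 8 genes without it the median was 0.762%, from 0% to 5.59% for PAM16. All 8 genes of the high class had the sequence. TIM12, TIM18 and ERV1 had it too and stayed under 0.5%, and PAM16, TIM50 and MAS1 lacked it and had means of 5.59%, 5.54% and 4.04%. The presence of the C before the core did not separate the genes, with medians of 5.49% with it and 5.32% without. In the printed sites the core of TIM17, TGTACATA, is the one seen in TOM7, whose share was lower, and the core of ERV1, TGTATATA, is the one in TIM10. Between start and stop codon, 5 of the 31 genes (TIM18, SAM50, SAM37, MAS1 and MAS2) held the sequence, against 8.83% of all genes. These comparisons are descriptions of the listed genes.

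Without the RNA-binding domain, tagged reads of these mRNAs were nearly absent. In Puf3_ΔRBD (3 libraries), 0 of 584 reads of TOM5, 0 of 447 of TIM9, 0 of 477 of TOM70 and 0 of 2373 of TIM10 were tagged, which for TIM10 allows a share of up to 0.126%, as against 14.5% in the lowest Puf3 library. Tagged reads were left only for TOM6, with 2 of 1289, TOM40, with 1 of 248, and TIM23, with 1 of 529. All 23 genes tested fell, beside 50.8% of the 449 genes tested, with edgeR adjusted p from 2.57e-17 for TIM10 to 0.0454 for TIM54. These genes passed the filter through their tagged reads in intact Puf3, so the number that fell says little beside the shares. Leaving out Puf3_ΔRBD libraries in turn gave 16 to 19 genes. Of the other import genes, 4 of 6 tested fell.

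In the 10 strains that kept the RNA-binding domain, the import mRNAs stayed tagged. Over these strains, 239 pairs of an import gene and a strain were tested, of which 38 were called higher and 3 lower, in 6 of the 10 strains. This is 15.9% higher, against 13.7% of the pairs over all genes. Without Puf3 replicate 6, 107 of 239 pairs (44.8%) were higher, against 25.8% over all genes. The comparisons share the Puf3 libraries, so the strains are not independent of each other.

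Puf3_Δnon-RBD, in which the part outside the domain was removed, had 12 of 24 genes tested called higher, beside 35.0% of all genes tested. Leaving out its replicate 1, 2 or 3 gave 10, 8 and 5. TOM7 had 26.3%, 35.7% and 37.3% in its 3 libraries (edgeR adjusted p = 9.80e-05), above the highest intact library at 24.5%. TOM6 had 26.1%, 31.6% and 32.4% (p = 0.000202), also above all 12 intact libraries. SAM37 had 18.4%, 15.4% and 26.4% (edgeR adjusted p = 0.000676). It had 6 tagged reads in intact Puf3 and 27 in Δnon-RBD, so it passed the filter only through Δnon-RBD, and its call says little. TIM10, MIA40, TIM23, PAM16, PAM18, PAM17, TIM8, TIM50 and TIM13 were also higher, with MIA40 at 24.8%, 16.7% and 21.7%. TOM5 and TIM9, the mRNAs with the highest mean in intact Puf3, were not called, with TOM5 at 22.3%, 28.2% and 28.4% and TIM9 at 21.4%, 25.1% and 26.5%, both inside the intact range. TIM21, MDM10, SAM35 and TIM18 were at 0% in all 3 libraries.

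T7 exists under a pair of titles, which were kept apart. In Puf3_T7_del513, 11 of 24 genes tested were called higher (45.4% of all genes). They were led by TOM6 at 20.2%, 34.3% and 34.4% and TOM7 at 24.9%, 26.6% and 31.1% (edgeR adjusted p = 0.000127 and 0.000347). In Puf3_T7_del465 none was called (0.368%). In T6, 7 of 24 were higher (26.2%), led by TIM13 at 11.1% and 13.3% and PAM17 at 16.5% and 29.8% (edgeR adjusted p = 0.000216 and 0.000772). The TIM13 values lie above the highest of the 12 intact libraries at 3.47%. In T4, 4 of 25 were higher (7.44%), which were TOM6, PAM17, TIM50 and PAM16. TOM6 was at 16.8%, 21.4%, 23.2% and 21.5% there (edgeR adjusted p = 0.00573). In ΔIDR only TOM7 of 23 tested was higher (4.63%), at 22.6% and 24.3% (edgeR adjusted p = 0.0328). The numbers called in Puf3_T7_del513, T6 and ΔIDR lie near the shares over all genes and do not set the import genes apart. In T1, T2 and T3 no import gene was called (0.00%, 0.188% and 0.00% of all genes). These counts rest on few libraries: 7 were called in Puf3_T7_del513 without its replicate 2, 1 in T6 without its replicate 2, 0 to 2 in T4 without any 1 of its libraries, and 0 in ΔIDR without either library.

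T5 was the strain in which import mRNAs moved both ways. Of 24 genes tested, TOM6, PAM17 and TIM13 were higher, a share near the 11.6% of all genes, while TIM9, TOM5 and TOM70 were lower (2.51%). TIM9 had 10.7%, 17.9% and 6.98% (edgeR adjusted p = 0.00250), all below the lowest intact library at 20.2%. TOM5 had 16.1%, 12.6% and 17.6% (p = 0.00643), all below 20.7%. TOM70 had 10% to 13.8% (p = 0.0466), where the groups overlapped. These are the 3 genes with the highest mean share in intact Puf3, at 27.6%, 29.6% and 25.1%. Without T5 replicate 2, 1 gene was lower and 0 higher, and without T5 replicate 1, 0 were higher.

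Puf3 replicate 6 had itself high shares of TOM6 (22.1%), TOM7 (24.5%) and PAM16 (21.1%). Without it, more genes were called higher, over the import genes as over all genes. The counts were 18 of 24 in Δnon-RBD (52.6% of all genes tested), 17 in Puf3_T7_del513 (60.9%), 19 in T4 (27.6%), 14 in T6 (40.1%), 13 in T2 (16.8%) and 11 in T5 (20.2%). They were 6 in T3 (7.74%), 6 in Puf3_T7_del465 (10.8%), 2 in T1 (0.438%) and 1 in ΔIDR (9.68%). The 3 genes lower in T5 were called lower in both fits. Over the 10 strains with all libraries, TOM6 and PAM17 were called higher in 5, PAM16, TOM7 and TIM13 in 4, and TIM23 and TIM50 in 3. SAM37 was called higher in 3 of the 8 in which it was tested. It passed the filter there only with the tagged reads of the deletion strain. TOM20, TOM22, TOM40, TIM17, TIM22, TIM54, MAS1 and MAS2 were called in none.

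The level of the fusion's own mRNA differed among these strains. PUF3 had a median of 51.8 RPM in intact Puf3 (32.0 to 248), 148 in Δnon-RBD (55.9 to 262), 610 in T4 (105 to 1095), 347 in T5 (85.4 to 496), 325 in T6 (167 to 484), 212 in Puf3_T7_del465, 62.0 in Puf3_T7_del513, and 32.99 in ΔIDR. In T1, T2 and T3 the median was 85.0 RPM (30.7 to 404), 102 (35.8 to 308) and 63.6 (38.5 to 88.7). Over all genes, 1.53% to 2.32% of reads were tagged in Δnon-RBD, 1.47% to 2.08% in Puf3_T7_del513 and 1.03% to 2.02% in T6. These lay above the 11 intact libraries other than replicate 6 (0.911% or less). In each of the other non-RBD deletions the highest library lay above 0.911% and the lowest below it. The part of either in the results was not tested.

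**Figure D2:**
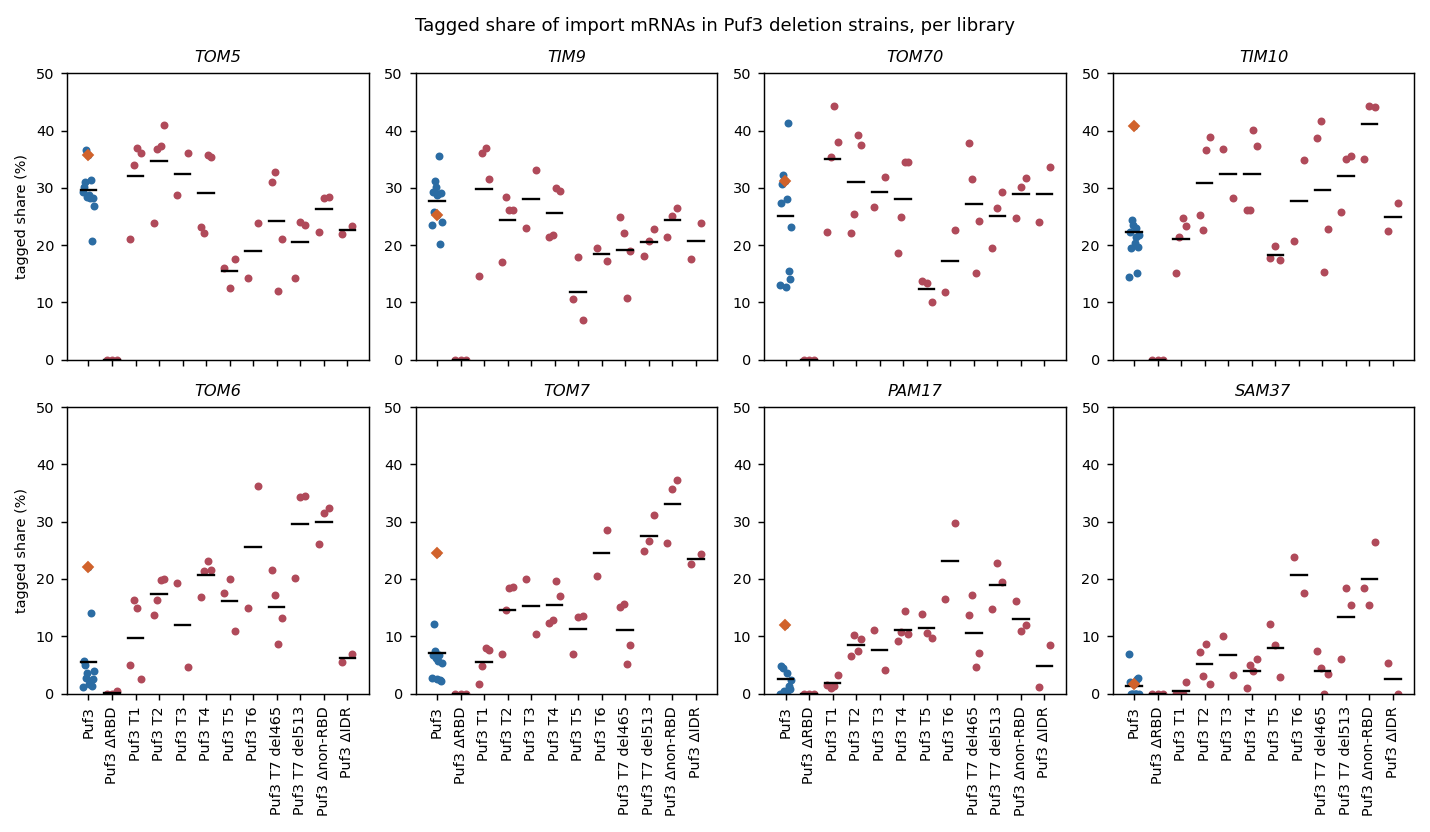
Tagged share (percent, y axis) of 8 import mRNAs in each library of intact Puf3 (blue, replicate 6 as a diamond) and of its deletion strains (red), with the mean as a bar. TOM5, TIM9, TOM70 and TIM10 fall to 0 in ΔRBD, TOM5 and TIM9 are low in T5 (12.6% to 17.6% and 6.98% to 17.9%), and TOM6 and TOM7 are highest in Δnon-RBD and Puf3_T7_del513.

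The length of the added U stretches was a readout that the shares do not use. In Δnon-RBD the stretches on 7 of the 8 high import mRNAs were longer, a call that was lost for all 7 without replicate 2 or 3 of that strain. Genes outside the import list were not tested one by one, so no share over all genes stands beside this count. Whether the longer stretches are particular to import mRNAs was not tested. The mean length in tagged reads of TOM5 was 9.52 to 10.1 Us in the 3 libraries, against 7.57 to 9.31 in the 12 intact ones. TOM22 had 9.34 to 9.97 against 6.79 to 9.17, and TOM70 9.85 to 10.2 against 7.46 to 9.68. For these 3 genes the groups did not overlap, with differences of 1.52, 2.01 and 1.34 Us (exact permutation test over libraries, two-sided, adjusted p = 0.0117 over 8 genes, the raw p of 0.00440 being the smallest that 3 against 12 libraries can give). TIM10, TOM20, TIM17 and TIM9 were longer by 0.974, 1.23, 0.881 and 0.901 Us (adjusted p = 0.0264 to 0.0402, exact permutation test), and TIM8 by 0.504 (adjusted p = 0.110). Over the tagged reads of all genes the mean was 8.20 to 8.46 Us in Δnon-RBD and 7.57 to 8.92 in Puf3 (exact p = 0.312). Without Puf3 replicate 6 the same test called 7 of the 8 genes as well, and without replicate 2 or 3 of Δnon-RBD it called 0 of 8, where 2 against 12 libraries gave a lowest adjusted p of 0.0586. This comparison was chosen after seeing the data.

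Among the 33 other RBPs, 9 had enough tagged reads on any import mRNA for a test against the 11 dPup2 libraries, with 34 pairs of gene and strain, of which 32 were higher in 7 strains. These strains share their controls. The filter again let a gene in only through its tagged reads, so the values are what differs. Pub1 tagged 16 of 16 import mRNAs tested (99.9% of all genes tested), but its order was another one than that of Puf3. TOM20 was the highest, at 42.5%, 45.8%, 34.4% and 39.1% in the 4 libraries, against a highest dPup2 library of 0.617% (edgeR adjusted p = 1.02e-37). TIM8 had 31.1%, 30.2%, 28.6% and 29.6% (p = 1.49e-33), and TIM17 25.2%, 29.7%, 31.7% and 26.4%. TOM40 had 30.96%, 26.6%, 23.7% and 31.03%, and TOM70 28.7%, 34.0%, 25.4% and 7.69%. The other 11 genes called were lower, from TOM6 at 5.80% to 9.79% down to TIM10 at 1.89% to 2.87% and PAM16 at 0% to 5.26%. Summed over the 31 genes the Pub1 share was 10.5% to 12.5%, below that of all genes in the same libraries at 19.8% to 24.3%.

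The direct comparison of Puf3 with Pub1, added after seeing the data, tested 24 import genes. Over all 1730 genes tested, 7.23% had a higher share in Puf3 and 87.1% a lower one. Of the import genes 7 were higher in Puf3: TIM10 (edgeR adjusted p = 2.78e-09), TIM9, TOM5, TOM22, PAM18, TOM7 and MIA40. In TIM10 the 12 Puf3 libraries lay at 14.5% or more and the 4 Pub1 libraries at 2.87% or less. In TIM9 the values were 20.2% or more against 8.82% or less, and in TOM5 20.7% or more against 9.09% or less. Lower in Puf3 were TOM40 (p = 0.00139), TOM20, TIM17, TIM12 and TIM8. TIM12 rests on few reads, with 6 tagged of 1294 in Puf3 and 6 of 353 in Pub1. It passed the filter only with both strains together. TOM40 was at 23.9% or less in Puf3 and at 23.7% or more in Pub1, so that the groups touched. Without Puf3 replicate 6, 8 were higher and 8 lower, and without Pub1 replicate 2 or 4, 6 and 7 genes were called in place of 12. The stretches differed in length as well, as a description: in TOM5 the mean was 5.57 and 6.16 Us in the 2 Pub1 libraries with at least 10 tagged reads, below all 12 Puf3 libraries, whereas in TOM40 the 4 Pub1 libraries had 8.36 to 9.49 Us and the 7 such Puf3 libraries 6.76 to 9.0.

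The remaining RBPs tagged few import mRNAs. Sro9, a La-motif protein, tagged 8 of 8 tested (99.6%), with TIM8 at 8.05% and 7.69% and TOM6 at 5.41% and 3.92%, and its summed share of 2.34% and 2.62% lay below that of all genes at 10.2% and 12.1%. By DESeq2 0 of these 8 were called for Sro9, with no adjusted p for 6 of them and a lowest of 0.0612. Rie1 tagged 3 of 3 (99.8%), TOM40 at 1.75%, 10.5% and 6.67% (edgeR adjusted p = 1.51e-11), TOM6 and TIM10, of which DESeq2 called 1. Nsr1, a nucleolar protein, tagged TIM8 at 0.535%, 2.48%, 7.69% and 4.26%, and TIM10, as 2 of 2 (99.4%). Mrn1 tagged TIM17, at 3.03%, 1.85% and 0% (96.4%), Scp160, a KH-domain protein, TOM70 at 4.00% and 6.71% (91.9%), and Pbp1 TIM10 at 0.132%, 1.88% and 0.855% (80.4%). DESeq2 did not call the Mrn1 pair (adjusted p = 0.298) and gave none for that of Scp160, and limma did not call that of Pbp1. Nab6 and Puf4 each had enough tagged reads only for TIM10, which was not called. In the 26 strains without a call, 65.3% of the tested pairs over all genes were higher, and 24 of these strains had no import gene with enough tagged reads. Puf5, the Pumilio relative of Puf3, had at most 0.0362% of import reads tagged in any of its 6 libraries.

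**Figure D3:**
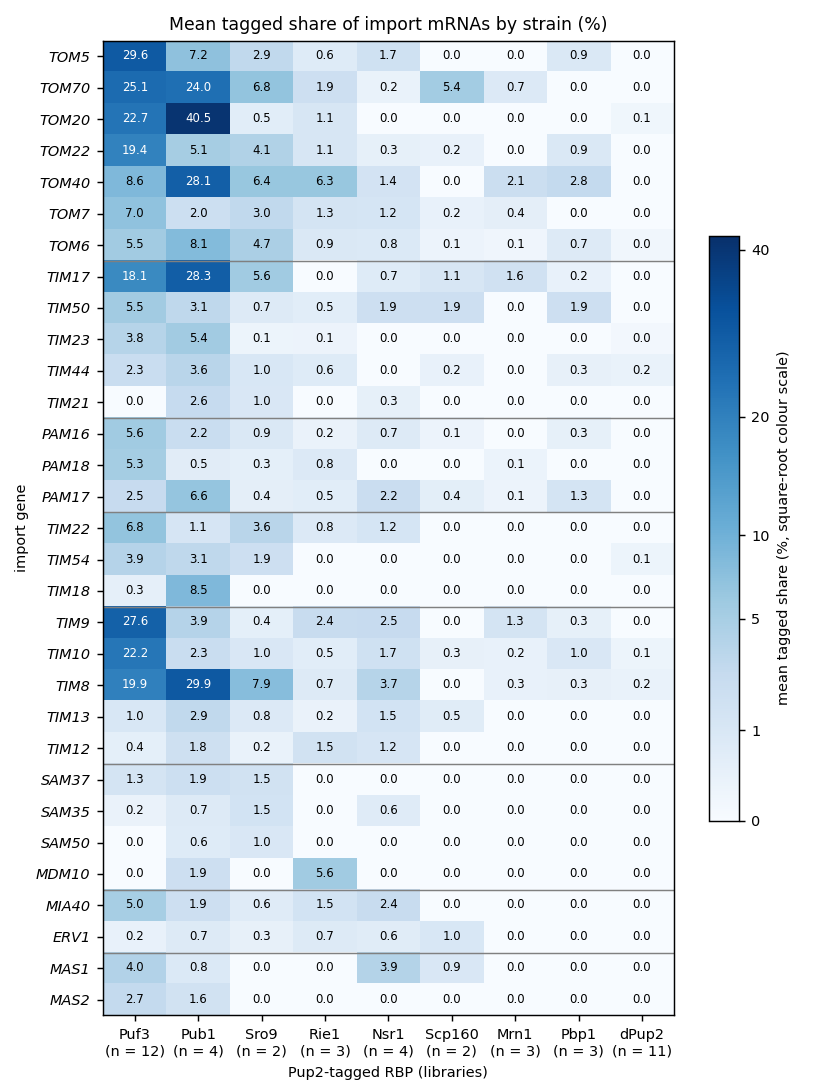
Mean tagged share (percent, printed in each cell, colour on a square-root scale) of the 31 import mRNAs (rows, by complex) in 8 RBP strains and in the dPup2 strains (columns, with the number of libraries). Puf3 has its highest values in TOM5 (29.6%) and TIM9 (27.6%), Pub1 in TOM20 and TIM8, and SAM50 and SAM35 lie under 2% in all columns.

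In the 8 deletion strains of Pub1, 94 of 138 pairs of an import gene and a strain were lower than in intact Pub1, and none was called higher. Most of these genes passed the filter through their tagged reads in intact Pub1, so the counts say little. They are given with the share of all genes tested that fell in the same strain. Pub1_T2 exists under a pair of titles, Trc6 and Trc9. In Trc9, 16 of 16 fell (99.0% of all genes tested), with TOM20, TIM8, TIM17 and TOM6 at 0% in both libraries, and in Trc6 13 of 17 (88.1%). In ΔIDR_2 it was 17 of 17 (98.2%), with TOM20 at 0%, 1.19% and 0%. In ΔIDR_1, 14 of 17 fell (86.8%), with TIM8 at 1.69% and 1.32%. In Δ4, 13 of 16 fell (80.6%), and in Δ2, 13 of 19 (57.3%), with TOM20 at 3.30% and 4.57% (edgeR adjusted p = 7.08e-42). In ΔIDR_3 it was 6 of 17 (56.8%), and in ΔT1 2 of 19 (20.4%), TIM17 at 16.3% and 16.1% (p = 0.00757) and TOM5 at 3.98% and 1.61% (p = 0.0203). Without a single library the count was 8 in ΔIDR_1 (its replicate 2), 8 in Δ4 (its replicate 1), and in ΔT1 4 or 0 (its replicate 1 or 2) and 1 (Pub1 replicate 2). DESeq2 called 16 in Trc9, 11 in Trc6, 14 in ΔIDR_2 and 9 in each of ΔIDR_1, Δ4 and Δ2. It called 5 in ΔIDR_3 and 1 in ΔT1. No adjusted p was given for 2 genes in Δ2, 2 in ΔIDR_3 and 8 in ΔT1.

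In ΔIDR_3, TIM8 went from 28.6% or more to 2.72% and 4.69% (edgeR adjusted p = 2.59e-11), TIM17 to 7.69% and 7.72%, and TOM20 to 18.3% and 20.1% (p = 0.000102). TOM40 had 24.2% and 22.4% there and 18.99% and 23.2% in Δ4, and was called in neither strain. In ΔT1, TOM20 had 45.8% and 41.4% and TOM40 42.5% and 36.4%, neither of them called. In Δ2 TOM40 had 12.2% and 10.4%. Whether TOM40 and TIM8 differ in their response was not tested.

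**Figure D4:**
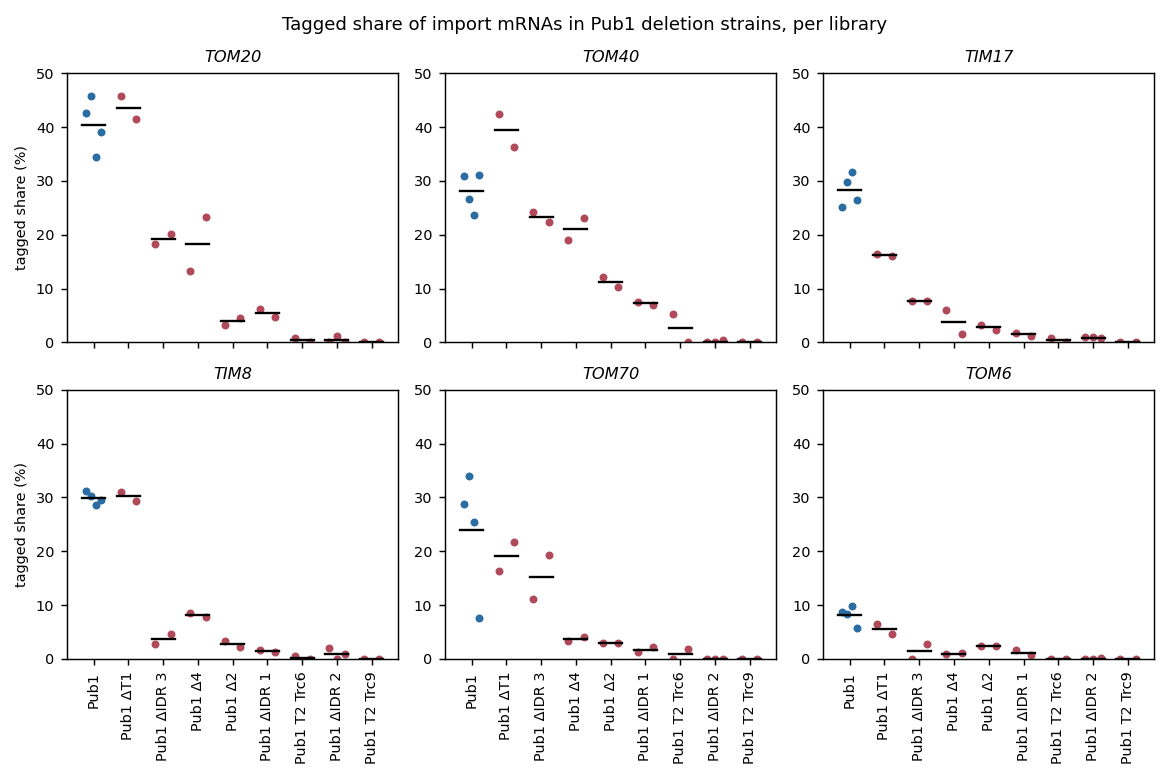
Tagged share (percent, y axis) of 6 import mRNAs in each library of intact Pub1 (blue) and of its 8 deletion strains (red), with the mean as a bar. In ΔIDR_3 TIM8 lies at 2.72% and 4.69% and TOM40 at 24.2% and 22.4%, and in T2 Trc9 TOM20, TIM17 and TIM8 are at 0.

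Of the 31 deletion strains of Puf4, Puf5, Mrn1, Nab6, Rie1 and Scp160, 16 had an import gene with enough tagged reads, and 5 of 25 pairs were lower, a share near the 20.8% of the pairs over all genes. TOM40 was at 0% in both libraries of Rie1_ΔIDR_3 and of Rie1_Δ4 (edgeR adjusted p = 0.00710 and 0.0160). TOM70 was at 0% in both libraries of Scp160_ΔIDR_1 and of Scp160_Δ6 (p = 0.0260 and 0.0475), and TIM17 in both of Mrn1_ΔIDR (p = 0.0484). None of the 25 was higher. The TOM40 calls were lost without Rie1 replicate 3 or either deletion library. The TIM17 call was lost under limma and without Mrn1 replicate 2 or either deletion library, and the TOM70 calls under limma in ΔIDR_1 and with the library total as offset in Δ6. DESeq2 called TOM40 in both Rie1 strains and gave no adjusted p for the TIM17 and TOM70 pairs.

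The levels of the import mRNAs, from all reads whether tagged or not, differed less than their tags. In a culture, fewer cells with an mRNA and fewer copies per cell cannot be told apart. Together the 31 genes took 4543 to 9764 RPM of the Puf3 libraries with a median of 6151, 3918 to 4981 RPM of the dPup2 libraries with a median of 4586, 5422 to 6413 RPM in Puf3_ΔRBD and 8340 to 10656 RPM in Δnon-RBD. The range of Puf3 overlapped that of dPup2, and those of Puf3_ΔRBD and of Δnon-RBD lay above it. Between Puf3 and Puf3_dead, only TIM9 was called, with 209 RPM in the lowest, 353 in the median and 637 in the highest Puf3 library against 78 to 159 RPM in Puf3_dead, a log2 fold change of 1.71 (SE 0.25, edgeR adjusted p = 0.000788). The groups did not overlap. This is 1 of 31 genes, beside 0.365% of the 5209 genes tested. At an unadjusted p under 0.05, 13 of the 31 were higher and 0 lower, beside 6.64% and 6.10% of all genes, and the median log2 fold change was 0.28, against 0.00 over all genes. TIM8 and TOM5 came next, with log2 fold changes of 0.78 (SE 0.22, adjusted p = 0.107) and 0.67 (SE 0.19, adjusted p = 0.117). The TIM9 call was absent within clone 1 and against the 4 C-Swat libraries of Puf3, in which TIM9 had 110, 80.9, 186 and 214 RPM.

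Between Puf3_ΔRBD and Puf3, 0 of the 31 genes were called by edgeR (0.0194% of all genes lower). DESeq2 called 1, and at an unadjusted p under 0.05 edgeR had 1 higher and 4 lower, beside 6.07% and 5.37% of all genes. Between Δnon-RBD and Puf3, a comparison added after seeing the data, 0 were called by edgeR (0.0194% of all genes higher) and 0 by DESeq2, with 12 higher and 1 lower at an unadjusted p under 0.05, beside 4.57% and 3.60% of all genes. TIM9 had 440, 751 and 890 RPM in Δnon-RBD and 158, 219 and 206 RPM in Puf3_ΔRBD.

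In Pub1 against dPup2, also added, 2 import mRNAs were higher (3.19% of all genes) and 3 lower (2.47%). TOM20, the mRNA most tagged by Pub1, had 387, 314, 291 and 360 RPM against a median of 158 RPM in dPup2 with a highest library of 327, a log2 fold change of 0.97 (SE 0.19, edgeR adjusted p = 0.00405). TOM40 had 242, 245, 217 and 240 RPM against a median of 106 RPM, a log2 fold change of 0.95 (SE 0.22, p = 0.0135), with overlapping groups. TIM22 had 18.98, 15.9, 20.96 and 12.4 RPM, all below the lowest dPup2 library at 22.0 RPM, a log2 fold change of -0.80 (SE 0.21, p = 0.0235). TOM5, with 42 of 604 Pub1 reads tagged, and TOM7, with 9 of 551, had log2 fold changes of -0.77 (SE 0.20, p = 0.0277) and -0.74 (SE 0.22, p = 0.0480). TIM8 and TIM17, which Pub1 also tagged highly, were not called for their level (edgeR adjusted p = 0.282 and 0.137). Leaving out each Pub1 library in turn gave 1 to 3 calls in place of 5.

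**Figure D5:**
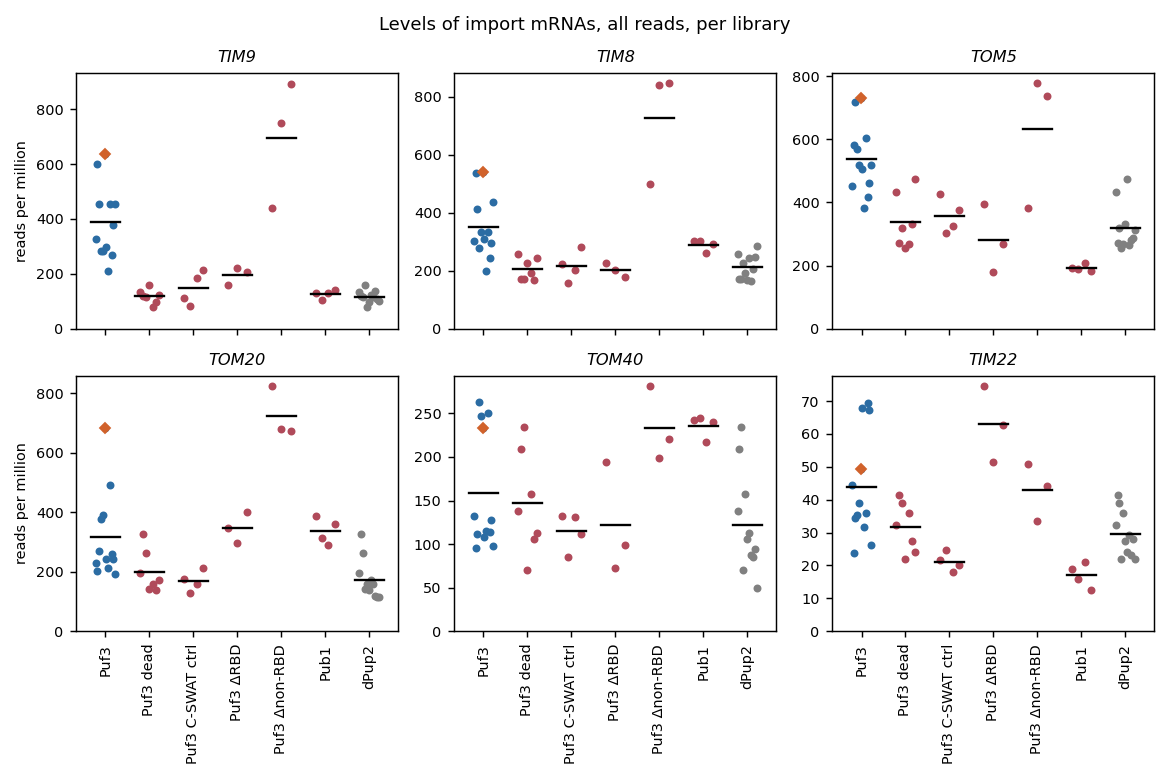
RPM (y axis, from all reads) of 6 import mRNAs in each library of Puf3, Puf3_dead, the Puf3 C-Swat strain, Puf3_ΔRBD, Puf3_Δnon-RBD, Pub1 and all 11 dPup2 libraries, which include Puf3_dead, with the mean as a bar and Puf3 replicate 6 as a diamond. TIM9 lies at 209 RPM or more in Puf3 and at 159 or less in dPup2, and TOM20 and TOM40 are higher in Pub1 than at the dPup2 median.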

How the data were processed

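For each library the authors deposited raw read counts per gene and U stretch length, with 17 columns for 0 to 16 Us over 6629 genes, without normalization. They selected poly(A) RNA, ligated a 3′ adapter with a UMI, aligned read 1 to the R64 genome, counted Us on read 2 and kept reads on the sense strand near the annotated transcript end (300 nt before it to 100 nt after it). Their processing notes name bcl2fastq, cutadapt, Bowtie2 and bedtools, with versions not given in the sources used here. How UMIs entered the counts is not stated, so counts may include PCR copies.

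Reads with 4–13 Us were tested by edgeR 4.0.16 (R 4.3.3) with glmQLFit and glmQLFTest and the log of the gene's reads as offset, over genes with 10 tagged reads and a mean of 16 RPM, one strain against its control per fit. All reads were tested with TMM and filterByExpr. Adjusted p are Benjamini-Hochberg over all genes tested. Alternatives used DESeq2 1.42.0, limma 3.58.1 on log2 shares with 0.5 added, other U lengths, filters, offsets, controls and left-out libraries. The scripts were tested on simulated data. Members and lists were chosen with earlier results of these data known. Named genes are the highest and lowest member of each complex in Puf3, up to 2 called members per other strain and up to 3 per level comparison. Further genes were named after their values were seen. Groups follow the labels, and no library was left out.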

Additional observations from a re-analysis of the deposited data

Results flagged for a closer look

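In 34 checks of groups of 4 to 10 libraries, on the summed tagged share and the summed level of the 31 import genes, 6 libraries were flagged. The rule flags about 1 in 20 by chance for continuous values, a rate that does not hold for shares near 0. Where all other libraries are at 0, any tagged read is flagged, as in Npl3 and the Puf3 C-Swat strain. In 1 of the 4 Npl3 libraries 0.0499% of the import reads were tagged, against 0% in the other 3. In 1 of the 4 Puf3 C-Swat libraries it was 0.0195%, against 0%. Of the 7 Puf3_dead libraries, 1 had 0.118%, and the next had 0.0464%. Of the 4 Puf4 libraries, 1 had 0.528%, against 0.0754% to 0.147%. Of the 4 Puf5_T3 libraries, 1 had 0.340%, against 0.0249% to 0.0545%. The summed level was 3959 RPM in 1 Puf3_dead library, against 4586 to 4981 RPM in the other 6. All of these shares are far below the lowest Puf3 library at 7.74%.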

How the results depend on the processing

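Across the alternatives, 294 of the counts kept within 1.5 times and 23 did not. Many of the 294 are totals over strains with a library left out, 91 for the other RBPs and 100 for their deletions. Only fits that hold this library can change, so such a total can hardly move by 1.5 times. Without its replicate 3, Puf3_Δnon-RBD fell from 12 calls to 5, and the total still counted as kept. The 294 therefore do not show that calls within a strain are stable. Of the values of single genes, 827 kept their call, 83 lost it and 4 changed sign. With 4 to 16 Us counted as tagged, 4494 genes passed the filter for Puf3 in place of 457. Then 9 import genes were called in Puf3 in place of 23, 8 in place of 23 in Puf3_ΔRBD, 11 in place of 32 over the other RBPs, and 76 in place of 41 in the non-RBD deletions of Puf3. The 4 sign changes arose there, TIM13, TIM44 and MAS2 in Puf3 against Puf3_dead at log2 -0.1592, -0.01567 and -0.3391, and TOM5 in Puf3_T5 at 0.2534. With at least 50 tagged reads, 8 pairs were called over the other RBPs, and 46 in place of 99 over the deletions of other RBPs, where fewer genes were tested. DESeq2 called 20 pairs over the other RBPs, 4 genes for the level in Puf3 in place of 1, and 1 for the level in Puf3_ΔRBD in place of 0. For the level in Puf3, 0 genes were called within clone 1 and against C-Swat. No share over all genes stands beside the counts of calls in this paragraph. They do not show whether import genes differ from other genes. The motif was in 12 genes within 100 nt. The cause was not tested.

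For Puf3 against Puf3_dead only replicate 6 was left out, which gave 23 for the share and 1 for the level. The other Puf3 libraries and the dPup2 libraries were not left out in turn. Leaving out libraries gave 16 to 23 for Puf3_ΔRBD and 34 to 110 for the non-RBD deletions (110 without Puf3 replicate 6). It gave 24 to 33 for the other RBPs and 76 to 101 for their deletions. It gave 6 to 16 for Puf3 against Pub1, 1 to 3 for the Pub1 level and 0 to 7 for the U length. For the levels in Puf3_ΔRBD and Puf3_Δnon-RBD it gave 0 to 0. The ranges for the non-RBD deletions, the other RBPs and their deletions are totals over strains. In these totals, only fits that hold the left-out library can change.

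Puf3 and Puf3_dead share clone and title numbers in 3 pairs, whose deviations correlated at 0.03, -0.09 and 0.10 for shares and at 0.32, -0.22 and 0.04 for levels, so the numbers were not taken as pairing. With a replicate block on these libraries, 17 genes were called for the share, against 23 without it on the same 6 libraries, and 0 for the level, against 0.

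Depth limits the genes with few reads: the 4 SAM genes, TIM18, ERV1, TIM22, MAS1 and MAS2 had 245 to 1027 reads over the 12 Puf3 libraries together. A limit such as 1.22% for MDM10 therefore holds for the summed reads, and a single library could show only larger shares.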
